A study of Mus musculus with 24 samples.

Results

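The genes described here are 10 members of the BCL2 family of survival and death genes, taken by symbol from a count table of 24421 genes. They are the survival members Bcl2, Bcl2l1, Mcl1 and Bcl2a1b, the effectors Bax and Bak1, and the BH3-only genes Bcl2l11, Pmaip1, Bbc3 and Bid. All 10 are in the table and all 10 passed the filter on low counts, which left 12742 genes for testing. The rule names genes by what they encode and uses no measured value, although the family was picked with earlier results of these data known.

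RNA was sequenced from bone marrow mononuclear cells of Shp2 E76K mice, in which the phosphatase SHP2 carries an activating change, and which serve as a model of juvenile myelomonocytic leukemia. Every group, vehicle included, carried that allele, so no group shows wild-type marrow. The 4 groups had 3 specimens each and were treated for 3 weeks: vehicle (specimens 1 to 3), ACP196, which inhibits the kinase BTK of B and myeloid cells (4 to 6), ACP319, which inhibits the p110δ form of the lipid kinase PI3K (7 to 9), and both agents (the combination; 10 to 12). The labels do not state the promoter that controls the allele, the strain, age or dose, nor that each specimen is 1 mouse. The p-values therefore cover only the variation among specimens.

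BCL2 family proteins decide whether the outer mitochondrial membrane stays intact. BAX and BAK1 form the pores that release cytochrome c, survival members such as BCL2, BCL-xL and MCL1 hold them in check, and BH3-only proteins such as BIM, NOXA and PUMA bind the survival members or the effectors and set the pores free. In myeloid cells MCL1 and the A1 proteins are the best known survival members, BCL-xL serves maturing red cells and platelets, and PI3K and AKT signalling holds back FOXO factors, which can transcribe the gene for BIM. These roles are played by proteins, and the values below are transcript levels.

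Total counts lay between 8993950 and 22154833 per specimen. The mature neutrophil markers, 13 of whose 14 listed genes were in the table, took 19.99% to 35.6% of all length-scaled expression (TPM, counts per base scaled to the same sum in every specimen). The defining red cell genes Hba-a1, Hba-a2, Hbb-bs and Hbb-bt had 0 counts in every specimen, although other erythroid genes were counted. In bulk RNA, fewer cells of a type and less RNA per cell cannot be told apart. BTK inhibitor specimen 5 stood apart, with the lowest total and with Rn45s, a ribosomal RNA gene, at 15.4% of counts, against at most 0.773% elsewhere. Libraries also differed in how expression followed gene length. The slope of log2 expression on log2 length, relative to the mean of all specimens, was 0.22 ± 0.16 (SD, n = 3) for vehicle, -0.15 ± 0.29 for the BTK inhibitor, -0.28 ± 0.16 for the PI3K inhibitor and 0.21 ± 0.10 for the combination. Members run from 764 bases (Bcl2a1b) to 7738 bases (Bcl2), so each is affected differently, and member results that change with a length correction are given with and without it. Titles carry a date, the same for 11 specimens (day 24 of the month) and later for BTK inhibitor specimen 6 (day 30), without saying what was done then.

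Promoters of both genes that the results turn on, Bax and Bcl2l11, are shown here so that the motifs named for their known regulators can be seen. The windows come from RefSeq on GRCm38.p6, run from 250 bases before to 50 bases after the transcript start, and are printed 5′ to 3′ on the gene's strand. Of the 10 members, 9 had windows that were used, 14 in all. Bax lies on the minus strand and its window is chr7:45466849-45467148. Capitals mark a p53 half-site that begins 201 bases before the start and 2 E-boxes (CACGTG) that begin 9 bases before and at base 36 after it.
Bax promoter: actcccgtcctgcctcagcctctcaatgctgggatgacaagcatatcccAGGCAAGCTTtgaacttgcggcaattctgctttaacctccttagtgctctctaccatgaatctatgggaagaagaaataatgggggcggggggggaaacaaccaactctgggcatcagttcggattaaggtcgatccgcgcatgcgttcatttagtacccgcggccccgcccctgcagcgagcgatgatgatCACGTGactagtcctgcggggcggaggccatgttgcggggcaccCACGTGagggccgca
The upstream Bcl2l11 window is chr2:128125788-128126087 on the plus strand, and capitals mark the FOXO core TGTTTAC, read on the other strand, that begins 227 bases before the start.
Bcl2l11 promoter: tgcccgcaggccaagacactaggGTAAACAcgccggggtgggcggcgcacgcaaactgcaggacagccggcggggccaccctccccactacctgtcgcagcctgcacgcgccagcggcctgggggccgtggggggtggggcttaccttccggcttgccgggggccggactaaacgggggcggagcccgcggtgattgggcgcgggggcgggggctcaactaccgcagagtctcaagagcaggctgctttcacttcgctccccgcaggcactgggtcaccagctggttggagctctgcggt
Searched on both strands in 32851 promoter windows of the same length, the FOXO core was in 3.65%, the p53 half-site in 8.36% and the E-box in 7.15%. Among the other members' windows only 1 of Bbc3 held the FOXO core, and none held the p53 half-site. These matches describe letters and not bound sites.

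Per unit length, Mcl1 was the most abundant member by a wide margin over the other survival genes. Its mean over the 12 specimens was 229 TPM, followed by Bak1 at 113 TPM, Bax at 77.4 TPM, Bid at 59.5 TPM and Bcl2l1 at 26.2 TPM. Lower still were Bcl2a1b at 13.5 TPM, Pmaip1 at 6.26 TPM, Bbc3 at 5.66 TPM, Bcl2 at 4.63 TPM and Bcl2l11 at 4.47 TPM. Each neighbouring pair in this order overlapped in its range over specimens, but Mcl1 exceeded every other member within each of the 12 specimens. The order on the death side differed by group: Bid was at 71.7 TPM and Bax at 64.0 TPM with vehicle, 74.6 and 74.2 with the combination, 43.8 and 82.8 with the BTK inhibitor, and 47.7 and 88.6 with the PI3K inhibitor. Bak1 was above both with vehicle and the combination, at 153 and 133 TPM, and close to Bax with the single agents, at 80.5 and 86.9 TPM. This group difference in order was not kept with the length correction. Mean length-corrected CPM per base were in the order Bak1, Bax and Bid in all 4 groups. With vehicle, for example, Bax was at 43.2 CPM over 869 bases and Bid at 84.1 CPM over 1891 bases.

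Mcl1 encodes a short-lived survival protein on which neutrophils and their precursors depend. It lies on chromosome 3 at 95658721 to 95663178 (mm10, plus strand, 3487 exonic bases). Its level, in CPM, counts scaled to library size with TMM factors, was 666, 379 and 631 in the vehicle specimens, 655, 987 and 413 with the BTK inhibitor, 578, 598 and 523 with the PI3K inhibitor, and 467, 489 and 449 with the combination. Vehicle specimen 2 was lowest of all and BTK inhibitor specimen 5 highest, and every treated group overlapped the vehicle range. The PI3K inhibitor differed from vehicle by 0.02 ± 0.32 on the log2 scale (SE; adjusted p = 0.971, quasi-likelihood test in edgeR, with Benjamini-Hochberg adjustment across 12742 genes). The BTK inhibitor difference from vehicle was 0.29 ± 0.32 (adjusted p = 0.572, edgeR), and -0.0685 without specimen 5. The combination specimens were below all 3 of the PI3K inhibitor (log2 difference -0.27 ± 0.32, edgeR adjusted p = 0.585). They were so with the length correction too, at 402 to 442 against 564 to 693 CPM. In this comparison 51.1% of all tested genes did not overlap between groups, and 31.7% with the correction.

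Bcl2l1 encodes BCL-xL, and the gene lies on the minus strand of chromosome 2 at 152758732 to 152831728. It was at 38.3, 57.8 and 51.0 CPM with vehicle, 69.5, 95.9 and 29.7 with the BTK inhibitor, 33.9, 101.0 and 99.1 with the PI3K inhibitor, and 54.5, 56.9 and 49.7 with the combination. Either agent alone gave a split group, with specimens 4, 5, 8 and 9 above and specimens 6 and 7 below every vehicle specimen. The PI3K inhibitor mean was 1.59-fold the vehicle mean (log2 difference 0.67 ± 0.43, edgeR adjusted p = 0.274), and the BTK inhibitor difference was 0.40 ± 0.43. Specimens treated with both agents sat close together within the vehicle range. Red cell genes also differed in the PI3K inhibitor group: of 8 tested erythroid markers 3 were called higher, against 4.84% of all genes. All 8 had a positive log2 difference (median 1.29). Their summed level was 729 to 1342 TPM, against 269 to 1358 TPM in vehicle. In the combination group the erythroid sum was highest, at 1692 to 1918 TPM. All 8 markers were positive there too (median 1.10), with 0 called where edgeR called 0% of all genes. On the TPM scale mean Bcl2l1 was 27.2 with vehicle and 32.8 with the combination. It was 19.3 with the BTK inhibitor and 25.4 with the PI3K inhibitor. The part of red cells in the Bcl2l1 values was not tested.

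Bcl2, the founding survival gene, lies on the minus strand of chromosome 1 at 106538178 to 106714290. Its CPM values were 23.4, 31.2 and 20.8 with vehicle, 23.4, 53.3 and 22.3 with the BTK inhibitor, 19.9, 23.6 and 11.3 with the PI3K inhibitor, and 18.6, 25.0 and 25.0 with the combination. All groups overlapped, with BTK inhibitor specimen 5 far above the rest and PI3K inhibitor specimen 9 the lowest. The PI3K inhibitor difference from vehicle was -0.46 ± 0.37 on the log2 scale (edgeR adjusted p = 0.379), and it reversed to 0.36 with a gene length correction. Between the single agents, Bcl2 was 0.84 lower with the PI3K inhibitor (log2 difference -0.84 ± 0.37), with an adjusted p of 0.745 in edgeR. That difference was -0.31 without BTK inhibitor specimen 5, and -0.05 with the length correction as well. The interaction of the agents on Bcl2, defined under Bax, was -0.05 ± 0.52 from counts and -1.53 with the length correction (edgeR adjusted p = 0.945 and 0.0994), and -0.94 with that correction when specimen 5 was left out.

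Bcl2a1b is 1 of the A1 genes, NF-kB targets that protect activated leukocytes, and lies on the plus strand of chromosome 9 at 89199273 to 89207838. It gave 13.7, 1.67 and 9.94 CPM with vehicle, 5.52, 10.3 and 3.66 with the BTK inhibitor, 10.9, 9.29 and 12.5 with the PI3K inhibitor, and 5.84, 2.92 and 4.76 with the combination. Vehicle specimen 2 was below all other specimens, so the vehicle range spanned every treated value. Specimens given both agents were all below those given the PI3K inhibitor, at 2.41-fold lower (log2 difference -1.27 ± 0.58, edgeR adjusted p = 0.170). With the length correction the groups overlapped, at 3.87 to 6.83 CPM with both agents and 5.72 to 10.4 CPM with the PI3K inhibitor, and the log2 difference was -0.43. This gene is measured with uncertainty, since 57.6% of its 50-base stretches also occur in another A1 gene and the sources used here do not say how reads with several matches were counted. Summed over the A1 genes, counts were 70 to 538 per specimen, of which Bcl2a1b took 50.9% to 65.0%.

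**Figure D1:**
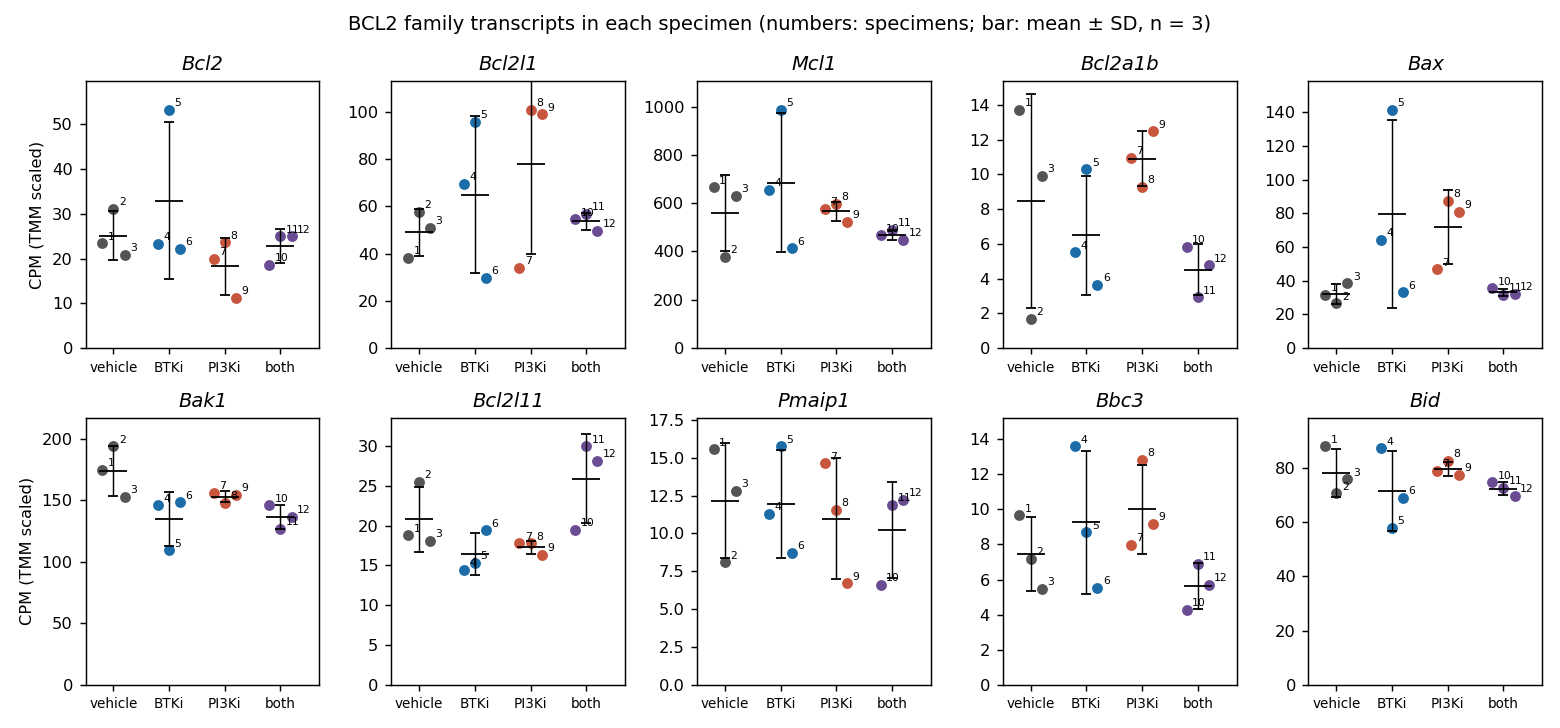
Level of each of the 10 members (y axis, CPM after TMM scaling) in each specimen, by treatment group (x axis); numbers name specimens and bars give the mean ± SD of 3. Bax stands higher in the 3 PI3K inhibitor specimens (46.7 to 87.6 CPM) than in vehicle (26.6 to 38.4 CPM), and BTK inhibitor specimen 5 is the highest for Bcl2, Mcl1, Bax and Pmaip1.

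Bax was the 1 member that passed the adjusted threshold in edgeR in any comparison, the interaction of the agents. It encodes the effector that moves from the cytosol to mitochondria during apoptosis, and is short, with 869 exonic bases at 45461695 to 45466898 on chromosome 7. Vehicle specimens had 31.7, 26.6 and 38.4 CPM, BTK inhibitor specimens 64.4, 141.6 and 33.1, PI3K inhibitor specimens 46.7, 87.6 and 80.8, and combination specimens 35.5, 31.8 and 32.1. All 3 PI3K inhibitor specimens and 2 of 3 BTK inhibitor specimens were above every vehicle specimen, whereas the combination stayed within the vehicle range.

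The PI3K inhibitor mean for Bax was 2.22-fold that of vehicle (log2 difference 1.15 ± 0.42, edgeR adjusted p = 0.0770, higher in 3 of 3 specimens). The BTK inhibitor mean was 2.46-fold that of vehicle (1.30 ± 0.42, adjusted p = 0.136, edgeR), and 0.60 on the log2 scale without specimen 5. Neither passed the threshold of 0.05, although DESeq2 and limma voom with quality weights called Bax in both. The combination differed from vehicle by 0.04 ± 0.42. The interaction of the agents asks whether the combined effect departs from the sum of the single effects on the log2 scale. It was called for Bax, as it was for 27.6% of all tested genes. Bax under both agents was lower than that sum by a log2 difference of -2.41 ± 0.60 (edgeR adjusted p = 0.0202).

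The Bax interaction moved with the gene length slope of the libraries. With a gene length correction it was -0.62 (edgeR adjusted p = 0.240), the PI3K inhibitor difference was 0.21 and the BTK inhibitor difference 0.38. Length-corrected CPM were 39.4, 45.6 and 44.8 for vehicle, 48.1, 80.4 and 40.6 for the BTK inhibitor, 44.1, 55.6 and 50.01 for the PI3K inhibitor, and 40.4, 41.6 and 44.8 for the combination. On that scale the PI3K inhibitor range overlapped that of vehicle, and specimen 5 alone was well above the rest. Without any 1 of vehicle specimen 2, PI3K inhibitor specimens 8 or 9, or combination specimens 11 or 12, the call ended. The edgeR adjusted p then lay between 0.05003 and 0.0589. In each of these fits edgeR called 0 or 1 genes of the whole table, against 3522 with all specimens. Without BTK inhibitor specimen 5 the interaction was -1.70 and was called, where 27.8% of all genes were. With the length correction as well, it was -0.29 (edgeR adjusted p = 0.430). The BTK inhibitor difference of Bax from vehicle was then 0.04 (edgeR adjusted p = 0.939).

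**Figure D2:**
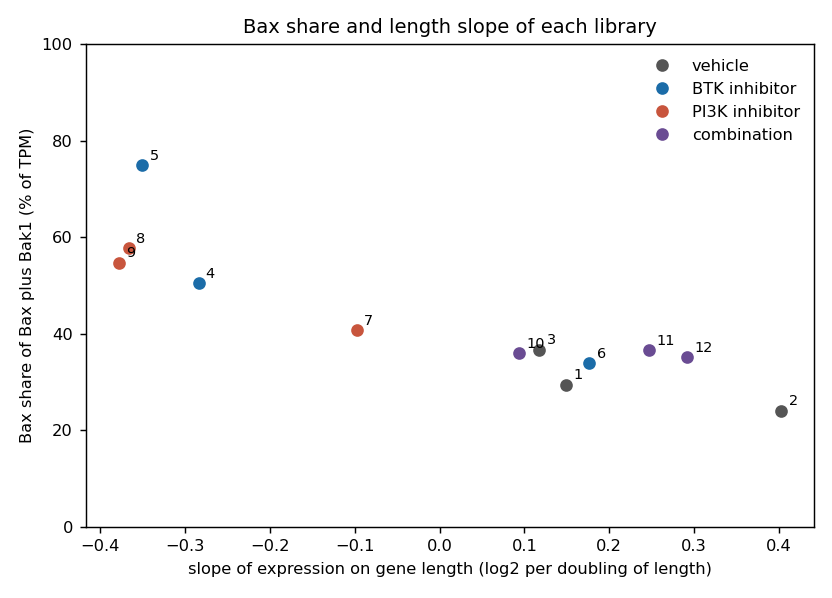
Share of Bax in the summed Bax and Bak1 level (y axis, % of TPM) against the slope of expression on gene length of the same library (x axis, log2 per doubling of length), 1 point per specimen. The 4 specimens in which Bax exceeded Bak1 (4, 5, 8 and 9) have slopes of -0.28 to -0.38, below those of the other 8.

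Bak1, the effector that resides in the mitochondrial membrane, lies on the minus strand of chromosome 17 at 27019812 to 27028626. It was at 175, 194 and 153 CPM with vehicle, 146, 109 and 148 with the BTK inhibitor, 156, 148 and 154 with the PI3K inhibitor, and 146, 127 and 137 with the combination. Both groups given the BTK inhibitor, alone or combined, were below every vehicle specimen, and PI3K inhibitor specimens overlapped the lowest vehicle specimen. The log2 differences were small: -0.37 ± 0.22 for the BTK inhibitor (edgeR adjusted p = 0.300), -0.19 ± 0.22 for the PI3K inhibitor (0.556) and -0.35 ± 0.22 for the combination (1.00). In length-corrected CPM the vehicle specimens were at 183, 217 and 154 and the 9 treated specimens between 119 and 152, with no overlap. The log2 differences on that scale were -0.45, -0.42 and -0.38 in the same order, none of which passed the adjusted threshold in edgeR (adjusted p = 0.234, 0.226 and 0.750).

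The share of Bax in effector transcript followed its level. Of the summed Bax and Bak1 TPM it held 29.5%, 24.0% and 36.7% with vehicle, 50.4%, 74.9% and 33.9% with the BTK inhibitor, 40.8%, 57.7% and 54.7% with the PI3K inhibitor, and 35.9%, 36.6% and 35.1% with the combination. The PI3K inhibitor specimens were all above the vehicle range, and the combination was not. This share rests on the same Bax values and the same length slopes, since Bak1 is longer, at 2002 bases. With the length correction it was 32.7% to 40.2% with vehicle, 38.1% to 60.9% with the BTK inhibitor, 40.9% to 48.8% with the PI3K inhibitor and 38.7% to 42.0% with the combination. The PI3K inhibitor specimens were still above vehicle there, but overlapped the combination.

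Bcl2l11 encodes BIM, a BH3-only protein that binds all survival members and is a known FOXO target. Its 7137 exonic bases lie between 128126038 and 128162547 on chromosome 2. Levels were 18.8, 25.5 and 18.1 CPM with vehicle, 14.4, 15.3 and 19.4 with the BTK inhibitor, 17.8, 17.8 and 16.3 with the PI3K inhibitor, and 19.5, 30.0 and 28.1 with the combination. Combination specimens were above every specimen of either single agent, specimen 10 only narrowly, and those of the PI3K inhibitor were below every vehicle specimen.

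The combination exceeded the BTK inhibitor 1.57-fold in Bcl2l11 (log2 difference 0.65 ± 0.25, edgeR adjusted p = 0.194) and the PI3K inhibitor 1.496-fold (0.58 ± 0.25, adjusted p = 0.153, edgeR). Its interaction was 0.92 ± 0.35, with an adjusted p of 0.0651 in edgeR, and DESeq2 and limma voom called it. The gene length correction took the difference from the BTK inhibitor to 0.09 and turned other directions: the interaction became -0.43, the combination against the PI3K inhibitor -0.25, and the PI3K inhibitor against vehicle went from -0.27 to 0.52. Length-corrected CPM were 16.5, 17.2 and 16.02 with vehicle, 20.7, 19.7 and 16.2 with the BTK inhibitor, 21.0, 26.0 and 24.3 with the PI3K inhibitor, and 18.2, 21.6 and 20.2 with the combination. On that scale every PI3K inhibitor and combination specimen was above every vehicle specimen. The PI3K inhibitor difference had an edgeR adjusted p of 0.137 there, and 0.0446 when BTK inhibitor specimen 5 was also left out. The direction of Bcl2l11 under the PI3K inhibitor therefore differed between the scales.

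**Figure D3:**
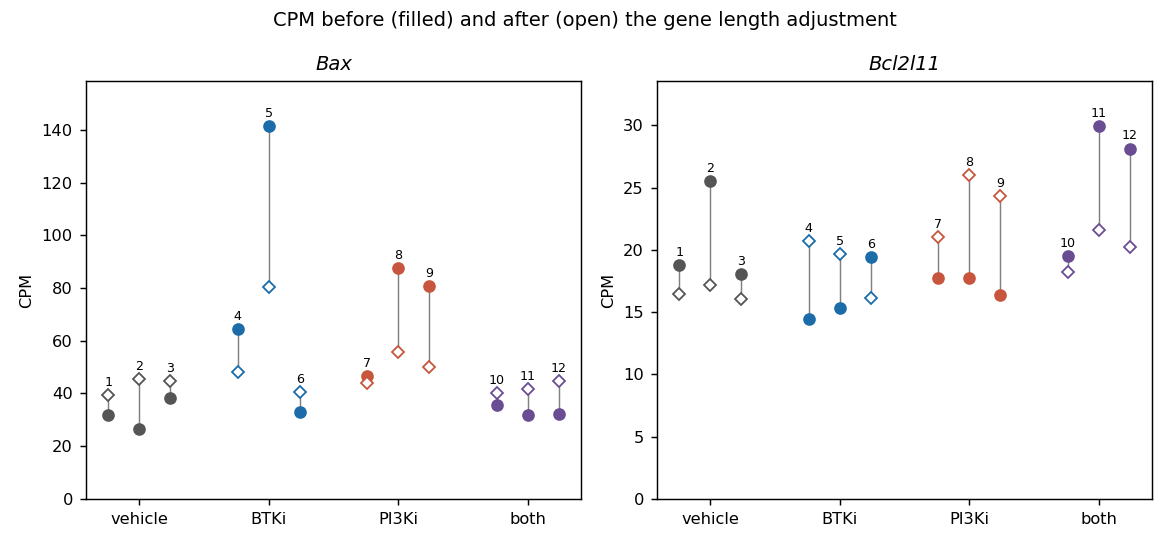
CPM of Bax and Bcl2l11 (y axis) in each specimen by group (x axis), before (filled) and after (open) the gene length correction; lines join values of 1 specimen. Bax of PI3K inhibitor specimens moves down to 44.1 to 55.6 CPM, and Bcl2l11 moves up to 21.0 to 26.0 CPM.

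Bbc3 encodes PUMA, a p53 target that binds every survival member, and lies on the plus strand of chromosome 7 at 16309583 to 16318334. Its values were 9.66, 7.19 and 5.49 CPM with vehicle, 13.6, 8.68 and 5.52 with the BTK inhibitor, 7.98, 12.8 and 9.18 with the PI3K inhibitor, and 4.27, 6.92 and 5.69 with the combination. The combination was below every PI3K inhibitor specimen, at 1.77-fold lower (log2 difference -0.83 ± 0.36, edgeR adjusted p = 0.158), and overlapped vehicle. The interaction was -1.14 ± 0.51, with an edgeR adjusted p of 0.105.

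Pmaip1, on chromosome 18, encodes NOXA, which binds MCL1 and the A1 proteins and leads MCL1 to degradation. It had 15.6, 8.09 and 12.8 CPM with vehicle, 11.3, 15.8 and 8.70 with the BTK inhibitor, 14.6, 11.6 and 6.71 with the PI3K inhibitor, and 6.60, 11.9 and 12.2 with the combination. Every group overlapped every other, and no difference from vehicle exceeded its standard error.

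Bid encodes the BH3-only protein that caspase-8 cleaves, linking death receptors to mitochondria, and lies on the minus strand of chromosome 6 at 120893119 to 120916820. In CPM it was the steadiest member. Its values were 88.0, 70.6 and 75.7 with vehicle and 87.2, 58.0 and 69.1 with the BTK inhibitor. They were 79.0, 82.6 and 77.5 with the PI3K inhibitor and 74.7, 72.7 and 69.7 with the combination. Its highest and lowest specimens differed 1.52-fold, against 5.32-fold for Bax and 8.20-fold for Bcl2a1b. The 3 combination specimens were below the 3 of the PI3K inhibitor (log2 difference -0.14 ± 0.22, edgeR adjusted p = 0.691). With the length correction they were above them, at 75.9 to 77.8 against 64.9 to 74.2 CPM (log2 difference 0.12), so the direction turned.

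Counted over the members, no pairwise comparison reached the adjusted threshold in edgeR. With the BTK inhibitor against vehicle 0 of 10 members were called, where 0% of all tested genes were, and Bax alone had an unadjusted p under 0.05, against 24.7% of all genes. Bak1 was the 1 member whose groups did not overlap (background 18.5%). With the PI3K inhibitor against vehicle 0 of 10 were called, against 10.7% of all genes, and again only Bax had an unadjusted p under 0.05, against 35.7%. In that comparison 2 members, Bax and Bcl2l11, did not overlap between groups (background 51.2%). DESeq2 and limma voom each called 1 member, Bax, in both comparisons, where they called 8.52% and 23.4% of all genes for the BTK inhibitor and 25.3% and 37.4% for the PI3K inhibitor. For the combination against vehicle edgeR, DESeq2 and limma voom called 0 of 10 (0%, 0.173% and 9.74% of all genes), 0 passed unadjusted in edgeR (4.91%), and Bak1 alone did not overlap (18.8%).

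Between treated groups edgeR again called 0 of 10 members, where it called 0% of all genes in each comparison. DESeq2 called 577 (4.53%), 1226 (9.62%) and 0 genes of the table in the order given here, and limma voom 4978 (39.1%), 5337 (41.9%) and 0. Against the BTK inhibitor, the combination had Bax lower and Bcl2l11 higher at an unadjusted p under 0.05 (20.2% of all genes), Bcl2l11 alone did not overlap (14.8%), and DESeq2 called 0 members and limma voom 3. Against the PI3K inhibitor, the combination had Bcl2a1b, Bax and Bbc3 lower and Bcl2l11 higher unadjusted (28.7% of all genes), and DESeq2 called 0 members and limma voom these 4. There 7 members did not overlap between groups (background 51.1%): 1 higher (26.5%) and 6 lower (24.6%), the latter Mcl1, Bcl2a1b, Bax, Bak1, Bbc3 and Bid. With the length correction 3 did not overlap (background 31.7%): Mcl1 and Bbc3 were lower and Bid higher, and the difference for Bak1 went from -0.16 to 0.04. The PI3K against the BTK inhibitor had Bcl2 lower unadjusted (6.21% of all genes) and 0 members without overlap (6.22%), and DESeq2 and limma voom called 0. In the interaction edgeR called 1 of 10 members, Bax, against 27.6% of all genes, DESeq2 called 2 (35.7% of all genes) and limma voom 3 (52.8%), and Bax, Bcl2l11 and Bbc3 had an unadjusted p under 0.05, against 43.1%.

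On the length-corrected scale the members that separated from vehicle were only partly different from those found in counts. Bak1 stayed lower in both groups that received the BTK inhibitor. Under the PI3K inhibitor Bax no longer separated, and Bcl2l11 turned from lower to higher. With the BTK inhibitor Bak1 alone did not overlap with vehicle (background 16.5%). With the PI3K inhibitor Bcl2l11 was higher and Bak1 and Bid lower without overlap (background 38.2%), and with the combination Bcl2l11 was higher and Bcl2 and Bak1 lower (background 24%). Between the treated groups, Bcl2 was lower with the combination than with the BTK inhibitor (16.3%), and Bcl2a1b and Bcl2l11 were higher with the PI3K than with the BTK inhibitor (6.36%).

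**Figure D4:**
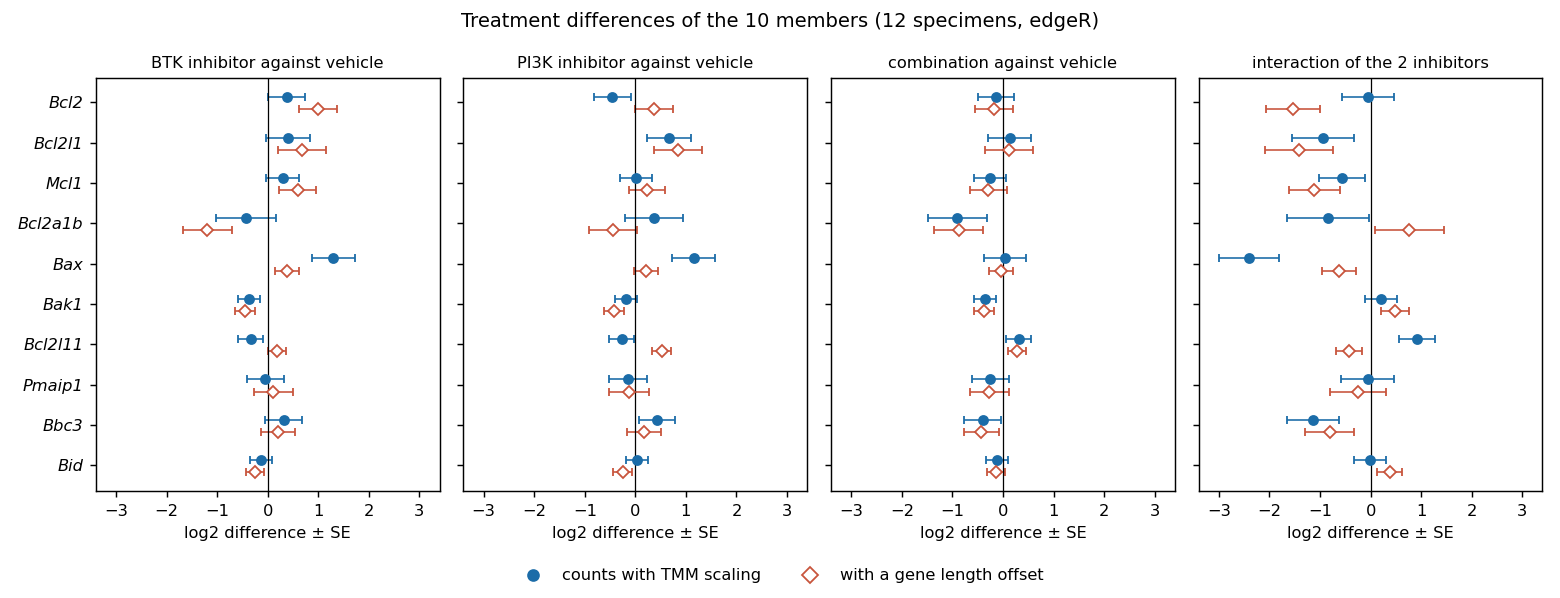
Log2 difference ± SE (x axis) of each member (y axis) for each treatment against vehicle and for the interaction, from counts (circles) and with the gene length correction (diamonds). Bax departs furthest in the interaction, at -2.41 from counts and -0.62 with the correction, and Bcl2l11 changes side.

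The balance of survival and death transcripts was near even in all groups before the length correction. Dividing the summed TPM of the survival members by that of the death members gave 1.22, 0.760 and 1.25 with vehicle, 1.06, 1.28 and 0.859 with the BTK inhibitor, 1.04, 0.943 and 0.901 with the PI3K inhibitor, and 1.00, 1.10 and 1.00 with the combination. Means were 1.08 ± 0.27 (SD, n = 3), 1.07 ± 0.21, 0.962 ± 0.07 and 1.03 ± 0.06 in that order. The spread of vehicle alone covered every specimen treated with the PI3K inhibitor or the combination, so no group stood apart in this ratio. The death sum was the larger in vehicle specimen 2, BTK inhibitor specimen 6 and PI3K inhibitor specimens 8 and 9. With the length correction the ratio was 0.566 to 1.13 with vehicle, 0.746 to 2.10 with the BTK inhibitor, 1.10 to 1.34 with the PI3K inhibitor and 0.806 to 0.919 with the combination. On that scale the PI3K inhibitor specimens were all above the combination specimens, and both groups overlapped vehicle.

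The ratio is mainly one of Mcl1 to Bak1, Bax and Bid. Mean shares of death TPM in vehicle were 49.2% for Bak1, 23.4% for Bid and 21.1% for Bax. Mcl1 made up 75.4% to 87.5% of survival TPM over the 12 specimens, and Bcl2l1 5.35% to 15.6%. The lowest Mcl1 shares, 78.6% and 75.4%, were in PI3K inhibitor specimens 8 and 9, which had the highest Bcl2l1 CPM. Summed survival TPM was 267 to 362 with vehicle, 218 to 244 with the BTK inhibitor, 200 to 283 with the PI3K inhibitor and 281 to 330 with the combination. Summed death TPM was 276 to 352, 170 to 284, 212 to 272 and 280 to 326 in the same order. Mean survival TPM was 226 ± 14.9 (SD, n = 3) with the BTK inhibitor and 229 ± 47.3 with the PI3K inhibitor, against 325 ± 50.5 with vehicle and 313 ± 27.5 with the combination. Mean death TPM was 219 ± 58.1 and 236 ± 31.6 with the single agents, 308 ± 39.0 with vehicle and 302 ± 23.1 with the combination. The BTK inhibitor specimens were all below the vehicle range in survival TPM, and the death sums of these groups overlapped. The PI3K inhibitor specimens were all below the vehicle range in death TPM, and their survival sums overlapped it. This order turned with the scale, in CPM divided by length. The mean survival sum per kilobase was then 190 with vehicle and 160 with the combination. It was 230 under BTK and 203 under PI3K inhibition, and these survival sums overlapped vehicle. Death sums per kilobase turned too, at 171 to 184 with vehicle and 186 to 232 with the PI3K inhibitor, without overlap. The combination was below vehicle there, at 150 to 161, and the BTK inhibitor overlapped vehicle. With the length correction the PI3K inhibitor death sums overlapped vehicle (168 to 183 against 179 to 213). Those of the combination stayed below, at 166 to 175.

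**Figure D5:**
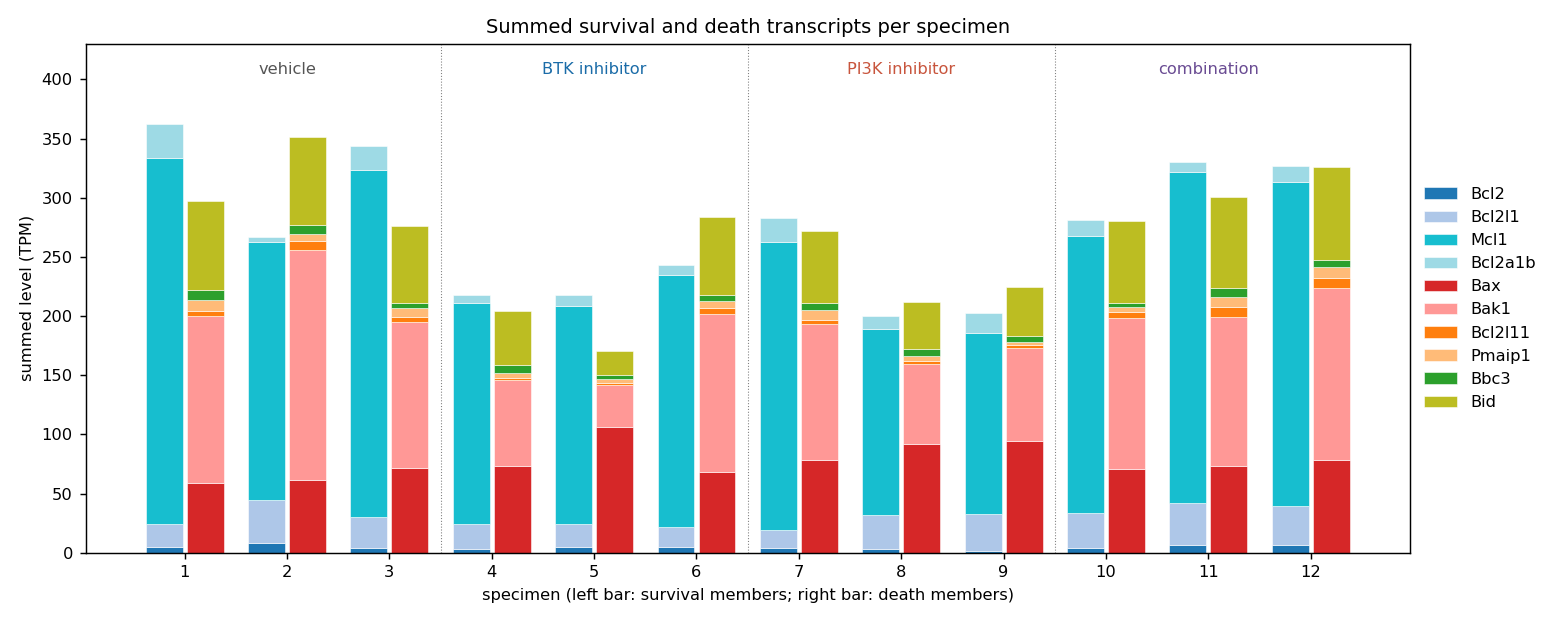
Summed level of survival members (left bar) and death members (right bar) in each specimen (x axis), in TPM (y axis), with each member as a segment. Mcl1 forms most of every survival bar, and Bax exceeds Bak1 in specimens 4, 5, 8 and 9.

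Around the members, 6 lists of pathway genes were counted, each beside its median log2 difference. For the PI3K inhibitor against vehicle, edgeR called 4.84% of all tested genes higher and 5.82% lower, and the median over all of them was -0.01. Markers of other cells were counted in the same comparison. Of 9 monocyte markers 4 were called lower (median -1.01), with summed TPM of 1129 to 1882 against 2184 to 2809 in vehicle. Of 13 mature neutrophil markers 2 were called lower and 0 higher, with 4 positive and 9 negative differences (median -0.31). The summed neutrophil TPM overlapped vehicle, at 249284 to 324577 against 237628 to 295526. The part of these cells in the list counts was not tested. Of 13 tested other BCL2 family genes 1 was called higher and 0 lower (list median 0.30): Bcl2l15, a less studied relative, went from a mean of 1.78 to 6.74 CPM (log2 difference 1.91 ± 0.45, edgeR adjusted p = 0.0403). Of 21 genes of the apoptosome, caspases and their inhibitors 3 were called higher and 4 lower (median 0.56). Birc6, a giant inhibitor of caspases, fell from 105 to 26.6 CPM (-1.99 ± 0.47, edgeR adjusted p = 0.0403). Vdac3, a channel of the outer mitochondrial membrane, rose from 76.3 to 149 CPM (0.97 ± 0.25), and Diablo, which blocks caspase inhibitors once released from mitochondria, rose from 29.1 to 59.6 CPM (1.03 ± 0.27), each with an edgeR adjusted p of 0.0407.

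Upstream genes were also mixed under the PI3K inhibitor. Of 15 transcriptional regulators of the family 1 was called higher and 1 lower (median -0.34). Rel, an NF-kB subunit that activates A1 genes, fell from 11.5 to 2.62 CPM (-2.12 ± 0.50, edgeR adjusted p = 0.0403), while Gata1, the erythroid factor that activates Bcl2l1, rose from 47.0 to 152 CPM (1.69 ± 0.43, 0.0407). Gata1 is also 1 of the 3 erythroid markers called higher. Of 10 genes of MCL1 and BIM protein turnover 0 were called higher and 2 lower (median -0.04). These were Gsk3b, a kinase that marks MCL1 for destruction (72.5 to 30.5 CPM, edgeR adjusted p = 0.0407), and Huwe1, a ligase for MCL1 (168 to 46.9 CPM, 0.0443). Of 10 death receptor genes none was called (median -0.51), with the smallest p for Cflar, the inhibitor of caspase-8, at 62.5 and 37.4 CPM (edgeR adjusted p = 0.0559), and Ripk1, a kinase of the same complex, at 75.6 and 50.03 CPM. Of 13 tested p53 genes none was called (median -0.22), with Phlda3 at 1.16 and 3.28 CPM and Mdm4 at 94.1 and 59.2 CPM.

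Gene length moved with most of these calls. The called genes that were lower include Birc6 at 15768 bases, Huwe1 at 14624 and Gsk3b at 8298. Rel was also lower, at 2584 bases, below the median of 2835 over tested genes. Those higher include Vdac3 at 1423, Gata1 at 1902, Diablo at 1939 and Bcl2l15 at 2093. With the gene length correction none of the 8 named genes passed in edgeR, where 0 genes of the whole table did (2812 at an unadjusted p under 0.05). When BTK inhibitor specimen 5 was also left out, that correction gave 2410 calls in the table (18.6%), and Bcl2l15, Birc6, Diablo, Rel and Gata1 were called again. Rel kept its size, at -2.13 (adjusted p = 0.0642 in edgeR), and Bcl2l15 was at 1.73 (0.0841), while Birc6 went to -0.86 and Vdac3 to 0.38. All 8 calls also ended in 8 of the 12 fits that left out 1 specimen. These were the fits without a vehicle specimen, PI3K inhibitor specimen 8 or 9, or a combination specimen. In each of them edgeR called 0 genes of the whole table.

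With the BTK inhibitor 0 genes of the 6 lists were called by edgeR, and no gene of the table was (3153 had an unadjusted p under 0.05, 19 of them in the lists). DESeq2 called 5 list genes and 1085 of the table, and limma voom 21 and 2979. Median log2 differences were 0.20 for other BCL2 family genes, 0.12 for the apoptosome, -0.29 for death receptors, -0.20 for p53, -0.33 for regulators and -0.09 for turnover, against -0.02 over all genes. The smallest p among other BCL2 family genes belonged to Bcl2l15 (1.78 CPM in vehicle, 5.49 with the inhibitor) and Bcl2l12 (13.5 and 24.3). In the apoptosome list it belonged to Birc5, the apoptosis inhibitor survivin (123 and 555), and Endog, a mitochondrial nuclease (3.72 and 14.9). In the other lists it belonged to Tnfrsf1a, a TNF receptor (190 and 102), and Cflar (62.5 and 45.4), Cdkn1a, the p53 target p21 (9.84 and 6.31), and Ddit4 (7.69 and 15.02). The last were Gata1 (47.0 and 118), Foxo3, a FOXO factor (40.7 and 16.7), Pim1, a survival kinase (92.6 and 60.5), and Fbxw7, a ligase for MCL1 (16.1 and 31.8). Their edgeR adjusted p lay between 0.136 and 0.236. BTK inhibitor specimen 5 carried several of these means. When it was left out, Birc5 differed from vehicle by 0.93 on the log2 scale in place of 2.18, Endog by 0.79 in place of 1.96, Bcl2l15 by 0.92 in place of 1.55, Gata1 by 0.66 in place of 1.33, Tnfrsf1a by -0.52 in place of -0.90, Ddit4 by 0.0891 in place of 0.93, and Fbxw7 by -0.11 in place of 0.96.

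With the combination 0 genes of the lists were again called by edgeR, as was no gene of the table (626 unadjusted, 3 of them in the lists). DESeq2 called 0 list genes and 22 of the table, and limma voom 5 and 1241. The list medians were -0.12, 0.10, -0.19, 0.06, -0.13 and 0.06 in the same order, against 0.00 over all genes. Bik, a BH3-only gene, was at 0.117 CPM in vehicle and 0.559 with the combination, and Bcl2a1d, an A1 gene, at 4.31 and 1.75. Casp6, an executioner caspase, was at 11.2 and 15.1, Diablo at 29.1 and 39.5, Fas, a death receptor, at 28.7 and 19.99, and Tnfrsf1a at 190 and 128. Cdkn1a was at 9.84 and 7.01, Mdm4 at 94.1 and 115, Gata1 at 47.0 and 97.4, and Spi1, the myeloid factor PU.1, at 400 and 264. Btrc, a ligase subunit, was at 22.2 and 36.6 and Mapk3, the kinase ERK1, at 249 and 172 CPM. In the interaction, of 82 tested list genes, 10 were called higher and 12 lower by edgeR. Of all genes 12% were called higher and 15.6% lower. The apoptosome list had 4 higher and 7 lower. With the length correction edgeR called 0 of the 82 list genes in the interaction, and 1 gene of the whole table. At an unadjusted p under 0.05 there were 28 of the 82 list genes and 3646 of 12742 in the table.

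The genes most like each survival member over the 12 specimens were found by Pearson correlation of log2 CPM among genes with a mean of at least 4, as a description. For Mcl1 these were Irf1 (0.95), Samsn1, Lrif1, Clec4d and Lfng. Bcl2a1b was most like Wfdc17 (0.94), H2-Ab1, Gngt2, St3gal4 and AW112010. For Bcl2l1 the nearest was Slc25a39 (0.92), then Ube2l6, March2, Cmas and Isg15, and for Bcl2 Rrbp1 (0.97), Ano6, Tmem127, Satb1 and Kif5b. The 5 genes nearest Bcl2 were all long, at 4401 to 6788 bases, against a median of 2835 over tested genes, and these points share libraries and their length slopes. Among members, Bax and Bcl2l11, the shortest but 1 and the longest but 1, had a correlation of -0.70, and Bax and Bcl2l1 of 0.75.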

How the data were processed

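Bone marrow RNA of 12 specimens, 3 in each of 4 groups, was analysed. The authors aligned reads with STAR and counted them per gene on mm10 with featureCounts, per the submitters' processing notes, and deposited raw counts. Versions, strand and multiple-match settings are not given in these notes. The labels list 24 samples, 2 per specimen, and the table has 1 column for each specimen, of which 0 were unused. Of 24421 genes, 6573 had no count.

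Counts were scaled with TMM and tested with edgeR 4.0.16 (R 4.3.3; filterByExpr with a minimum count of 10, robust quasi-likelihood fit over all 12 specimens, Benjamini-Hochberg adjustment over 12742 genes, threshold 0.05) in 7 comparisons, 6 pairwise and the interaction. The 3 comparisons with vehicle share its specimens, as do comparisons with any other common group. Standard errors are the absolute log2 difference divided by the square root of F. A prior count of 2 was used for log2 CPM. TPM used the deposited gene lengths. The gene length correction is an offset per library, a natural spline of log length with 5 degrees of freedom. DESeq2 1.42.0, limma 3.58.1 (voom with quality weights), other scalings, filters, groups and leaving out each specimen were alternatives.

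In simulated data for the PI3K inhibitor against vehicle (12609 genes), edgeR found 8% of simulated 2-fold and 70% of simulated 4-fold changes, and made 2 false calls. With a simulated length trend (12605 genes) it made 39 false calls, and 3 with the offset. Total counts bound the precision of low genes and cover counting error only.

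The members and gene lists were chosen with earlier results of these data known. List genes are named by rule: in each comparison with vehicle, up to 3 called genes with the smallest p, or the 2 with the smallest p where none was called. For Bcl2, Bcl2l1, Mcl1 and Bcl2a1b the 5 most correlated genes are named, leaving out predicted genes.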

Additional observations from a re-analysis of the deposited data

Results flagged for a closer look

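The interaction of the inhibitors for Bax was -2.41 on the log2 scale (edgeR adjusted p = 0.0202), meaning that the effect of the PI3K inhibitor differed between specimens with and without the BTK inhibitor. In the interaction edgeR called 27.6% of all tested genes. Bax was higher than vehicle in 3 of 3 PI3K inhibitor specimens, and lower than every PI3K inhibitor specimen in 3 of 3 combination specimens. Groups did not overlap for 51.2% of all genes in the PI3K inhibitor against vehicle. The share was 51.1% in the combination against the PI3K inhibitor. With the gene length correction the value was -0.62 (adjusted p = 0.240, edgeR).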

How the results depend on the processing

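The alternatives for named pathway genes and the length-corrected balance were added after seeing the data, and the cause of each change below was not tested. Over all members and comparisons, alternatives other than leaving out a specimen kept direction and side of the threshold in 613 cases, made 18 newly called, ended 2 calls and reversed 57 directions; for named list genes these numbers were 316, 24, 11 and 7. Of the member differences given, those that reversed were, for the PI3K inhibitor against vehicle, Mcl1 (-0.12 with limma voom, -0.000484 without a count filter), Bcl2 (0.36 with the length correction, 0.36 when specimen 5 was also left out) and Bcl2l11 (0.52 and 0.51). Bax in the combination against vehicle was -0.0554 with limma voom, -0.0319 with the length correction and -0.0304 when specimen 5 was also left out. Bcl2l11 was -0.25 and -0.24 in the combination against the PI3K inhibitor and -0.43 and -0.39 in the interaction under both length settings, and the Bcl2 interaction was 0.33 with limma voom. In the combination against the PI3K inhibitor, Bak1 was 0.0401 and 0.0365 and Bid 0.12 and 0.11 under those settings. Among list genes, Cflar was 0.10 with the length correction for the BTK inhibitor and 0.10 and 0.0906 for the PI3K inhibitor, Mdm4 0.0741 and 0.0679 for the PI3K inhibitor, and Ddit4 -0.0423 (limma voom) and -0.0900 (length correction without specimen 5) for the BTK inhibitor. Member calls against vehicle became 1 with DESeq2 and with limma voom for either single agent, and for the PI3K inhibitor 1 (Bax) with only the groups compared (32.9% of all genes) and 1 (Bcl2l11) with the length correction without specimen 5 (18.6%). The combination had 3 calls against the BTK inhibitor with limma voom, and against the PI3K inhibitor 4 with limma voom and 3 with only the groups compared (32.6%). The interaction had 2 with DESeq2, 3 with limma voom and 0 under both length settings. It also had 0 without specimen 2, 8, 9, 11 or 12, where edgeR called 0 or 1 genes of the table. Leaving out 1 specimen at a time gave 0 to 1 calls for the BTK inhibitor (1 without BTK inhibitor specimen 6, where 29.4% of all genes were called), 0 to 1 for the PI3K inhibitor (1 without specimen 5 or 6, with 33.8% and 26.2% of all genes), 0 to 3 for the combination against the BTK inhibitor (3 without specimen 6, 26.8%), 0 to 1 against the PI3K inhibitor (1 without specimen 5 or 6, 19.3% and 13.9%) and 0 to 3 in the interaction (3 without specimen 6, 44% of all genes, 2 without specimen 10, 0 without specimens 2, 8, 9, 11 or 12). Values then ranged from -0.0685 to 0.55 for Mcl1 (BTK inhibitor, lowest without specimen 5), from -0.20 to 0.16 for Mcl1 (PI3K inhibitor), -0.31 to 0.46 for the Bcl2 interaction, -0.0828 to 0.18 for Bax (combination), -0.11 to 1.30 for Fbxw7 (BTK inhibitor) and -0.0557 to 0.56 for Mdm4 (combination); the Bax interaction ranged from -2.78 to -1.70 (edgeR adjusted p from 0.000806 to 0.0589). The log2 survival to death ratio, 0.07 for vehicle, 0.08 for the BTK inhibitor, -0.06 for the PI3K inhibitor and 0.05 for the combination, became -2.58, -2.76, -2.41 and -2.59 without Mcl1, and 0.57, 0.68, 0.63 and 0.52 as differences of mean log2 CPM; with the length correction it was -0.17, 0.36, 0.29 and -0.19. Bcl2a1b had the lowest count of any member, 41 in vehicle specimen 2, although the total count of that specimen was the highest (22154833). Bbc3 had 43 counts in BTK inhibitor specimen 5, the specimen with the lowest total (8993950). No paired analysis was possible because no specimen number occurs in more than 1 group.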
